A study of Mus musculus with 12 samples.

Results

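The regions described here are 2209 stretches of mouse chromatin that carried acetylation of lysine 27 of histone H3 (H3K27ac) at both oxygen levels tested, over 1000 bp from any H3K4me3 peak, with their midpoint outside every protein-coding gene. Of these, 152 overlapped a gene body in part. They were chosen by the measured peak calls themselves. An interval had to be present in the H3K27ac peak list of hypoxia and in that of normoxia, to be under 20000 bp wide, to lie over 1000 bp from every peak of lysine 4 trimethylation (H3K4me3) at either oxygen level, and to have its midpoint outside the bodies of the 21951 protein-coding genes of the GENCODE basic annotation. Of 15421 H3K27ac intervals, 14614 were in both lists (94.8%), 5265 of these lay over 1000 bp from H3K4me3, 4935 of those were under 20000 bp wide, and 2209 had their midpoint between genes. The other 2726 lay within genes and serve as the closest comparison. Presence in both lists, absence of H3K4me3 and width are therefore properties of the choice and not results.

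The cells were bone-derived mesenchymal stem cells (MSCs), stromal cells that can form bone, cartilage and fat, called Bone-marrow MSCs in the labels, from the legs of wild-type male C57BL/6N mice aged 3 to 5 months. They were grown at 2% oxygen (hypoxia) or 21% oxygen (normoxia) and, per the methods of the study, sorted for Sca-1 and CD140a (PDGFRA) and against the blood markers CD45 and TER-119, before the oxygen levels were split in those methods and after culture in the labels. Chromatin immunoprecipitation and sequencing was carried out for H3K27ac, H3K4me3 and an input control, with 2 libraries for each at each oxygen level, 12 libraries in 6 groups. Each mark at each oxygen level is represented by 1 peak list made from both libraries, so the read depth and the spread between libraries are not known here, and no difference between the oxygen levels below has a replicate check.

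H3K27ac is laid down by the acetyltransferases p300 and CBP at active enhancers and promoters, while H3K4me3 marks promoters. Enhancers are stretches of DNA bound by transcription factors that raise the transcription of a gene at a distance, at times past other genes and across stretches of sequence with no gene at all, called gene deserts. In stromal and other adherent cells, active enhancers are known to carry sites for AP-1 (dimers of Fos and Jun proteins), for TEAD proteins (the DNA-binding partners of YAP and TAZ) and, in the bone lineage, for RUNX2.

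The cell type was checked against the state of gene starts in the same lists. Of 10 markers of mesenchymal stromal cells, 9 had H3K4me3 at a start and 8 had H3K27ac there, among them Pdgfra, Pdgfrb, Thy1, Prrx1, Twist1, Col1a1 and Col1a2. Eng and Nt5e, which encode the stromal surface proteins endoglin and CD73, had H3K4me3 without H3K27ac. Of 8 blood cell markers 0 had H3K27ac at a start, although Klf1 had H3K4me3 there, and of 4 endothelial markers 1 (Kdr) had H3K4me3 and 0 had H3K27ac. The defining blood and endothelial genes Ptprc, Spi1, Cdh5 and Pecam1 carried neither mark at a start.

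The sequence of the most remote intervals shows what a member looks like where no gene is near. The 5 members farthest from a protein-coding start are given below by the 200 bases of each that held the most AP-1 matches and then the most AP-1, TEAD and RUNX matches in all. The windows lie outside exons and were picked for their matches, so the matches in them are a description. Capitals mark TGANTCA (AP-1), GGAATG (TEAD) and TGTGGT (RUNX), each read on both strands. Coordinates and sequence are from the mm10 (GRCm38) genome, forward strand.
upstream of Zeb2, chr2:46444978-46445177: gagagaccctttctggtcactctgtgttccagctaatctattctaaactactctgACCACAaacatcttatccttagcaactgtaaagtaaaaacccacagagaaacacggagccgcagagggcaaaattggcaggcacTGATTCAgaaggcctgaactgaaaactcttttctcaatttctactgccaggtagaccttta
upstream of Cited2, interval A, chr10:16544648-16544847: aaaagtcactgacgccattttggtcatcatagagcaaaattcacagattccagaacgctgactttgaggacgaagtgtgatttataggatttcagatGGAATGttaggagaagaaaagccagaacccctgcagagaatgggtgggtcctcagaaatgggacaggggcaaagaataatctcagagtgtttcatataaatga
upstream of Cited2, interval B, chr10:16554006-16554205: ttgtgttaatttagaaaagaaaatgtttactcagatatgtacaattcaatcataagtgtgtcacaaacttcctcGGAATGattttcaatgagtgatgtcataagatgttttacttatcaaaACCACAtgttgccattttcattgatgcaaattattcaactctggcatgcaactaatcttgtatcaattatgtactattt
upstream of Cited2, interval C, chr10:16589466-16589665: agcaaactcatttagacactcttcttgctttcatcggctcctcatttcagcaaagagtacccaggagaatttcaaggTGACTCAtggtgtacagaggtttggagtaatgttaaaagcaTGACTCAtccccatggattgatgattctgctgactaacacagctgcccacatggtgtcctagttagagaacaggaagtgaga
downstream of Ttll7, chr3:147852923-147853122: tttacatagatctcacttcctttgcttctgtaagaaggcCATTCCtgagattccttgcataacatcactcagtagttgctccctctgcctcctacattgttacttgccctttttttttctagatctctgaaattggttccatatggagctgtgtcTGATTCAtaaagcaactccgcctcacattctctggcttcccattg

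The member upstream of Zeb2, which encodes a zinc finger repressor of epithelial genes, lay 1324106 bp from that start (chr2:46441501-46447000) and had the top score of 1000 at both oxygen levels. Its 5500 bp held 4 AP-1, 3 TEAD and 6 RUNX matches. Next in distance were 3 members upstream of Cited2, a transcriptional co-regulator that competes with HIF1A for CBP and p300. They lay 1175218, 1167718 and 1132218 bp from its start, with scores of 127, 126 and 58 in hypoxia and 127, 127 and 58 in normoxia. The first 2 of these held 0 AP-1 matches and the last held both of its matches in the window printed above. The fifth lay 957825 bp downstream of Ttll7, a tubulin polyglutamylase gene, with scores of 58 and 62.

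Sequence is shown for 3 dense groups of members as well, since these are the places where several acetylated stretches follow each other. The window comes from the member with most AP-1 matches in each of the groups of 4 and of the group of 3 that covered most sequence, and the groups themselves are described further on.
cluster beside Gas6, chr8:13536085-13536284: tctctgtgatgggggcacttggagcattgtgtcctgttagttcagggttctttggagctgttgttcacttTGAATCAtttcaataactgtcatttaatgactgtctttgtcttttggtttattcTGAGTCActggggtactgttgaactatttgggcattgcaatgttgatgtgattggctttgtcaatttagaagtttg
cluster upstream of Map4k3, chr17:80795709-80795908: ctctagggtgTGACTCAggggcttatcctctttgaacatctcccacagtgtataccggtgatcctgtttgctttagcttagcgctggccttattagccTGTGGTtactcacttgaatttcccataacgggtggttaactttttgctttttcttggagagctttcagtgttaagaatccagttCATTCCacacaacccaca
cluster at Ccl2 and Ccl7, chr11:82039921-82040120: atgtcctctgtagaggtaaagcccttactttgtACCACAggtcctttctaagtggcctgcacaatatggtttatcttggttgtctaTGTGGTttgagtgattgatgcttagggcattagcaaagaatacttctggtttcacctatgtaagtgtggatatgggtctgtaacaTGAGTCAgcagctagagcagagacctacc

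A further 2 windows were chosen after their values were seen, for genes that define these cells or their secretions: the member next to Col1a2, which encodes a chain of type I collagen, and the 260 bases before the start of Il6, which encodes interleukin-6. The Col1a2 window held 1 match of each motif. The Il6 stretch held a single AP-1 match and no TEAD or RUNX match.
upstream of Col1a2, chr6:4493781-4493980: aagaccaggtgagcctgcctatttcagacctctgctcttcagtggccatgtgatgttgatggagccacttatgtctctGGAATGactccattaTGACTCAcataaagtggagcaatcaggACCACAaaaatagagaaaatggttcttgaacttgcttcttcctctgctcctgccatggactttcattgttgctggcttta
bases just before the start of Il6, chr5:30012854-30013113: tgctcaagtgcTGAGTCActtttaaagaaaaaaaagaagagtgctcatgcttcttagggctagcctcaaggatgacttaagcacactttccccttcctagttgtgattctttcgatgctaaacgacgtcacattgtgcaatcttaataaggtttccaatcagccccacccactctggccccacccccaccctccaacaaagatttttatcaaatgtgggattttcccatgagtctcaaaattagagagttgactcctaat

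The members covered 12.6 Mb, 14.5% of the sequence in all H3K27ac intervals common to both lists and 0.783% of the sequence between coding genes. Their width ran from 1000 to 19500 bp with a median of 4500 bp (interquartile range 3000 to 7000). The comparison intervals within genes were wider, with a median of 5500 bp (4000 to 9000). H3K27ac intervals identical to an H3K4me3 peak were narrower, with a median of 3000 bp (2500 to 3500). At the edges of the choice, 3 members were 19500 bp wide and 3 intervals between genes were left out at 20000 bp, and 4 members lay 1500 bp from H3K4me3 while 2 intervals were left out at 1000 bp. A further 54 intervals between genes were left out for width. The 3 widest members lay downstream of Mob4 (chr1:55155501-55175000), downstream of Lrrc74a (chr12:86786001-86805500) and upstream of Runx1 (chr16:93092001-93111500), and 4 were 19000 bp wide, near Ube2v1, Tbc1d1, Spp1 and Medag.

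Members lay a median of 54072 bp from the nearest protein-coding start (interquartile range 20337 to 136235 bp). The start of Sox9, the regulator of cartilage formation, was the nearest for 3 of them, at 159224, 306724 and 819224 bp upstream, and that of Inhba, which encodes the activin A subunit, for 11, up to 744526 bp away. In gene deserts, taken as over 100 kb from a start, there were 727 members, or 32.9% (95% Wilson interval 31.0 to 34.9). Sequence that far from a start made up 53.6% of all sequence between coding genes, more than the share of members. Over 500 kb from a start the gap was wider, with 64 members (2.90%, interval 2.28 to 3.68) against 16.5% of the sequence, and 4 members lay over 1000 kb away against 5.06% of the sequence. All intervals given here cover counting error only, and neighbouring regions are not independent of each other.

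Density showed the same pattern. Members reached 2.20 per Mb at 20 to 50 kb from a start and 2.11 per Mb at 10 to 20 kb. The density was 1.99 per Mb at 50 to 100 kb, 1.46 at 100 to 200 kb, 0.858 at 200 to 500 kb and 0.241 beyond. It was 1.55 per Mb at 1 to 10 kb and 1.95 per Mb up to 1 kb from a start. The rule left out intervals close to H3K4me3, but the sequence counted here and for the shares above kept such stretches. That sequence also included 84.9 Mb of chromosome Y, which held 0 members. The part of both in the pattern was not tested. The median width was 4500 bp in deserts and 4500 bp up to 10 kb from a start. Median scores were also close, 83.0 in hypoxia and 82.0 in normoxia in deserts against 88.0 and 85.5 up to 10 kb from a start.

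**Figure D1:**
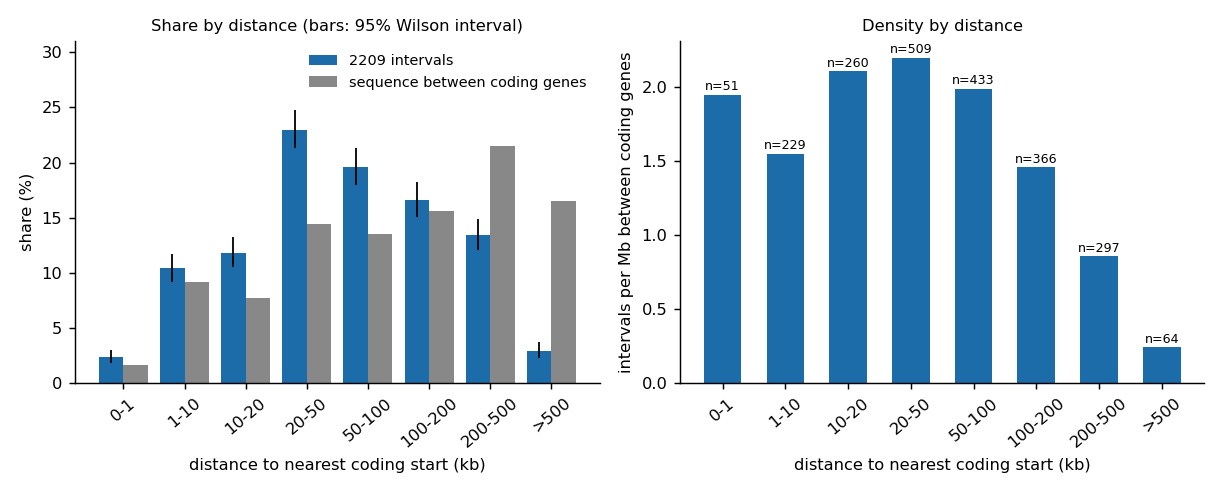
Left, share (%) of the 2209 intervals (blue, with 95% Wilson intervals) and of all sequence between protein-coding genes (grey) by distance to the nearest coding start in kb. Right, intervals per Mb of that sequence, with the number of intervals on each bar. The sequence includes chromosome Y and stretches close to H3K4me3, where the rule left intervals out. The density is 2.20 per Mb at 20 to 50 kb and 0.241 per Mb over 500 kb.

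Members lay upstream of the nearest gene more often than downstream. Leaving aside those that held a start, 1344 of 2165 were upstream, or 62.1% (interval 60.0 to 64.1). Up to 10 kb from a start this was 80.5% (75.0 to 85.1, 236 members), but sequence just downstream of a start is mostly within the gene, which the rule left out. In deserts the sides were closer to even, with 381 upstream and 346 downstream (52.4%, interval 48.8 to 56.0).

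By chromosome, density on the autosomes ran from 0.900 per Mb of sequence between coding genes on chromosome 14 to 2.17 on chromosome 13 and 2.08 on chromosome 10. Chromosome X held 22 members, 0.185 per Mb, and 23 of the intervals within genes. No member lay on chromosome Y. Chromosome 13 also held the most desert members, 79, and chromosome 10 held 71. With 119 Mb of sequence between coding genes, X held fewer members per Mb than any autosome.

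In 44 members an annotated start of a coding gene lay inside the interval although no H3K4me3 peak was within 1000 bp. They covered starts of 47 genes, of which 43 had no H3K4me3 at any start and 4 (Kcnk2, Ndel1, Tm4sf1 and Tmem219) had it at another start. Several of these genes encode surface and secreted proteins of stromal cells. Ly6a, which encodes the Sca-1 protein the cells were sorted for, had its start in an interval of 10500 bp (chr15:74988001-74998500) with a score of 128 in hypoxia and 104 in normoxia. The chemokine genes Ccl2 and Ccl7 shared an interval of 18000 bp with scores of 131 and 126. Il6 had scores of 124 and 122 over 3000 bp.

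Apod, which encodes the lipid carrier apolipoprotein D, had scores of 123 and 88, Ecm1, for an extracellular matrix protein, 1000 and 1000, and Panx3, for a channel protein of skeletal cells, 96 and 81. Among enzymes of oxidation, Adh7 (an alcohol dehydrogenase) had 1000 in hypoxia and 71 in normoxia, Nqo1 (quinone reduction) 70 and 93, and Aldh1a1 (retinoic acid synthesis) 72 and 72. Tm4sf1, a membrane protein gene, had 116 and 1000, and Tmem219 had 53 and 111. The innate immune genes Nlrp3, Ifi204 and Ifit3b also had their start in a member, at scores of 77 and 76, 90 and 84, and 85 and 85. Genes not known for a part in stromal cells were among them too, such as the olfactory receptor gene Olfr543 at 97 and 92. These genes were named after their values were seen.

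The nearest gene had H3K4me3 at any of its starts for 1757 of 2209 members, or 79.5% (interval 77.8 to 81.2). It had both marks for 1347 (61.0%, 58.9 to 63.0). The marked start need not be the nearest start. For intervals within genes these shares were no lower, 83.0% (81.5 to 84.3) and 63.2% (61.3 to 65.0). Among all coding genes 58.9% (58.2 to 59.5) had H3K4me3 at a start and 36.5% had both marks. Counted by the sequence around them, genes with H3K4me3 had 1.88 members per Mb of the sequence for which they were the nearest gene, and genes without it 0.672 per Mb. In deserts the share of members whose nearest gene had H3K4me3 at a start was 82.8% (79.9 to 85.4). Up to 10 kb it was 58.6% (52.7 to 64.2), where the rule removed members close to a marked start. For 452 members the nearest gene lacked the mark at every start. At 339 of these (75.0%, 70.8 to 78.8) the gene flanking them on the other side had it at a start.

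A total of 1477 genes were the nearest to at least 1 member, and 1082 of them to exactly 1. The 15 genes with most members, the last 3 taken by name from 9 genes tied at 6, accounted for 130 members. Of the 15, 14 had H3K4me3 at a start (all but Rfpl4b) and 11 had H3K27ac there (all but Sorl1, Dapk1, Rasgrp1 and Rfpl4b). Marcks, which encodes a membrane protein that binds actin, led with 17 members, 16 of them upstream, at 54.1 to 755 kb. Their scores ran from 50 to 125 in hypoxia and from 55 to 128 in normoxia. With 0.920 Mb of sequence nearest to Marcks, this came to 18.5 members per Mb against 1.37 over all coding genes. Among the 15 genes this density was highest at Dapk1 (31.8) and Sorl1 (20.5), and lowest at Tbl1xr1 (5.77) and Cited2 (6.62).

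Tbl1xr1, for a subunit of the NCoR corepressor complex, had 12, all upstream, at 110 to 694 kb, and their scores ran up to 1000 at both oxygen levels. Inhba had 11, of which 5 lay upstream at 80.4 to 268 kb. The rest lay downstream, at 160 and 207 kb and then at 654 to 745 kb. Klf6 and Cited2 had 10 each, and Rnd3, Sorl1 and Wdr11 had 8 each. Klf6 is a zinc finger factor of wound and stress responses. Runx1, the RUNX factor of blood and early skeletal cells, had 7, all upstream at 124 to 355 kb, with a higher score in hypoxia at 6 and in normoxia at 1, where over all members these shares were 38.6% and 28.4%. At Inhba it was higher in hypoxia at 4 and in normoxia at 7, and at Marcks at 8 and 6. Col12a1, for a collagen of tendon and bone surface, had 6 downstream members at 195 to 536 kb.

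**Figure D2:**
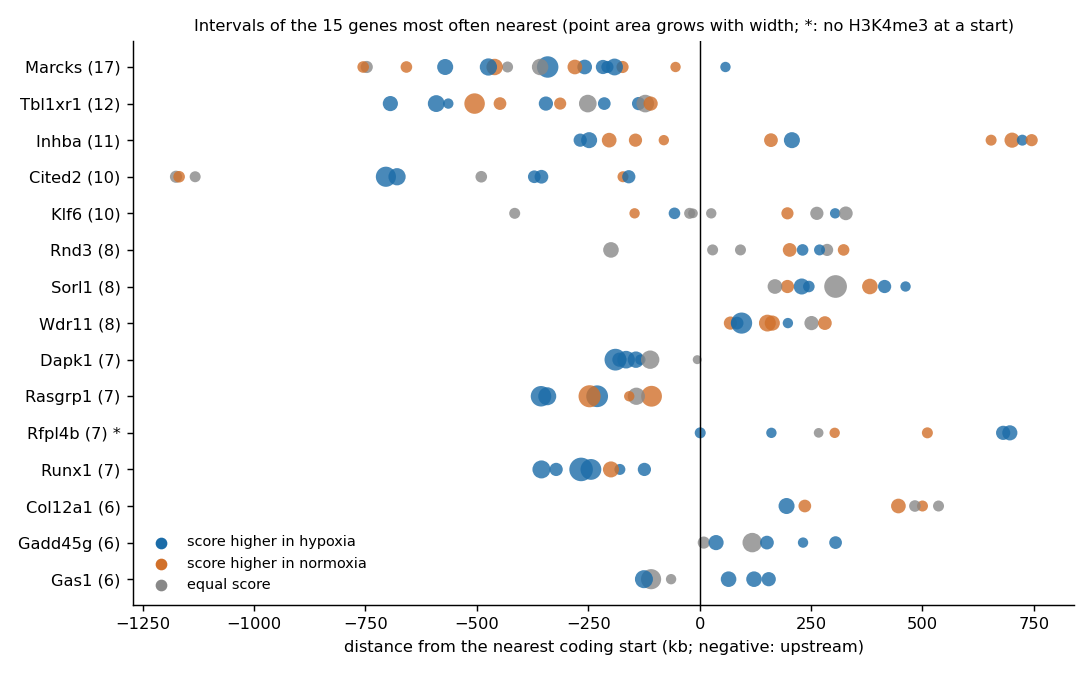
Distance in kb of each interval from the start of the gene it is nearest to, for the 15 genes with most such intervals (number in brackets). Each point is 1 interval, its area growing with width, blue where the score was higher in hypoxia, orange where higher in normoxia and grey where equal. Intervals of Marcks, Tbl1xr1 and Cited2 lie upstream except for 1 of Marcks, and those of Sorl1, Wdr11 and Col12a1 lie downstream.

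Some neighbouring genes shared longer stretches of members, described here for chosen pairs of genes without a search over all genes. The members of Marcks and Rfpl4b came to 24 over 1742 kb, lying between these genes apart from the member downstream of Marcks. The score was higher in hypoxia at 12, higher in normoxia at 8 and equal at 4. Between Rasgrp1 and Thbs1, which encodes the matrix protein thrombospondin-1, 12 members covered 134 kb of chr2:117451001-117993000, of which 7 were assigned to Rasgrp1 and 5 to Thbs1 by distance alone. Their scores were higher in hypoxia at 5, higher in normoxia at 4 and equal at 3. The members of Gas1, a growth arrest gene that acts as a Hedgehog co-receptor, and Dapk1, a death-associated kinase gene, formed another stretch of 13 members in 582 kb (chr13:60015001-60596500). There, 9 scores were higher in hypoxia, 4 were equal and 0 were higher in normoxia, 7 members stood at 1000 in hypoxia and 2 in normoxia, and Gas1 was also the nearest gene of 3 hypoxia-only intervals. Over all members 38.6% were higher in hypoxia and 28.4% in normoxia, and this stretch was named after its values were seen.

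Genes were also read through 12 lists of functions, which were written with earlier results of these data known. Over all coding genes, 6.74% were the nearest gene of a member, and 8.80% of those with H3K4me3. By share of genes with a member, collagen and matrix genes stood highest: 22 of 42 (52.4%, interval 37.7 to 66.6) had one, 63 members in all, 29 of them in deserts. This was 10.5 members per Mb of their own surrounding sequence against 1.88 for genes with H3K4me3. Col12a1 and Thbs2 had 6 each, Adamts5 (an enzyme that cuts aggrecan) and Thbs1 had 5 each.

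By the same share growth factor and cytokine genes came next, with 17 of 40 (42.5%, 28.5 to 57.8) and 34 members, 4.02 per Mb, a density below those of the AP-1 and TEAD-YAP, adipogenic and hypoxia response lists. Fgfr2 had 5 at 116 to 281 kb, Cxcl12, the chemokine of the bone marrow niche, had 4 at 102 to 295 kb, Has2 (hyaluronan synthesis) had 4 and Ccl2 had 3. The list of AP-1 and TEAD-YAP genes had 11 of 27 (40.7%), 16 members and 5.25 per Mb, led by Tead1 with 3. Only 1 of these 16 lay in a desert, against 23 of the 33 members of TGF-beta and BMP genes. That list had 14 of 43 genes (32.6%), 3.84 members per Mb, led by Inhba with 11, Smad6 with 4, and Acvr2a and Bmp4 with 3 each.

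Mesenchymal transcription factor genes had a member at 12 of 36 (33.3%), 13 of the 20 members in deserts and 2.50 per Mb, with 4 each for Zeb2 and Ebf1 and 2 each for Zeb1 and Foxp1. In the chondrogenic list 7 of 22 (31.8%) had one, 14 members in all and 2.92 per Mb, 5 for Trps1, with scores of 53 to 130 in hypoxia and 51 to 130 in normoxia, and 3 for Sox9, with 56 to 138 at both. Of adipogenic genes 7 of 22 (31.8%) had one, 13 members and 5.18 per Mb, Klf4 leading apart from Ebf1 with 3 at 184 to 580 kb. In the osteogenic list 9 of 33 genes (27.3%, 15.1 to 44.2) had 19 members, 2.90 per Mb. Col1a2 had 4 upstream members at 9.99 to 83.0 kb, with a score of 124 in hypoxia in each and of 123 to 124 in normoxia. Tnc (tenascin C) had 4 at 27.5 to 509 kb and Bmp4 had 3.

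Hypoxia response genes had a member at 12 of 37 (32.4%, 19.6 to 48.5), 17 in all and 4.25 per Mb. Hif1a, the oxygen-regulated transcription factor subunit, had 3 at 4.38 to 103 kb with scores of 142, 136 and 54 in hypoxia and 142, 132 and 59 in normoxia. Vegfa, the growth factor for blood vessels, had 2 at 85.4 and 134 kb with scores of 61 and 72 against 61 and 67. Hk2 and Pfkfb3, both of glycolysis, had 2 each. Of Wnt signalling genes 14 of 45 (31.1%) had 19 members, 3.54 per Mb, 3 each for Fzd8 and Sfrp1. Those of the receptor gene Fzd8, at 367 to 668 kb, had scores of 79 to 113 in hypoxia and 104 to 1000 in normoxia, while those of Sfrp1, a secreted Wnt antagonist, had 70 to 74 and 69 to 74.

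The lists of other cell types had the smallest shares of genes with a member. Blood cell genes had 3 of 24 (12.5%, 4.34 to 31.0), namely Ebf1, Cd34 and Ptprc, with 6 members, all in deserts. Per Mb this was 3.19, above the mesenchymal transcription factor, osteogenic and chondrogenic lists and above the 1.88 of genes with H3K4me3, and 4 of the 6 were those of Ebf1, which is also in the mesenchymal and adipogenic lists. The Ptprc member lay 244 kb from a start that carried neither mark and had scores of 140 in hypoxia and 1000 in normoxia. In the list of endothelial and neural genes 1 of 20 had members, Cdh5 with 4 at 76.6 to 517 kb, 1.22 per Mb, with scores from 54 to 1000 in hypoxia and from 51 to 1000 in normoxia, and its start also carried neither mark. The nearest start is an assignment by distance and does not show which gene a region acts on, and the lists differ in how much sequence surrounds their genes, so members per Mb are given for each and order the lists differently from the share of genes.

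Most members stood alone. Joining those at most 12.5 kb apart left 1782 alone, 163 pairs, 31 groups of 3 and 2 groups of 4. Groups of at least 3 held 101 members, or 4.57% (interval 3.78 to 5.52), and among the intervals within genes the share was 4.33% (3.63 to 5.16). The joining distance sets this value, which was 1.13% at 5 kb and 8.87% at 25 kb, and it was 2.39% without the lowest-scoring 25%. A group of 4 beside Gas6, which encodes a ligand of the TAM receptor kinases, filled 82.2% of 50.5 kb (chr8:13501001-13551500), and its scores differed little, 125 to 127 in hypoxia and 126 to 127 in normoxia. The other group of 4, upstream of the kinase gene Map4k3, filled 76.2% of 50.5 kb (chr17:80753501-80804000), with scores from 51 to 139 in hypoxia and from 51 to 117 in normoxia.

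Among the 31 groups of 3, taken in order of the length they covered, the first ran over Ccl2 and Ccl7, with 37.5 kb of H3K27ac in 46.0 kb (chr11:82003001-82049000). Its members had scores of 57, 50 and 131 in hypoxia and 57, 50 and 126 in normoxia. The next lay upstream of Dapk1, with 1000, 1000 and 96 in hypoxia against 107, 81 and 69 in normoxia, and the one after it downstream of Lrrc74a, ending in a member of 19500 bp with 1000 at both oxygen levels. No H3K27ac interval of another class lay within any of these 5 groups. The next groups of 3 in that order had Svil, Col6a2 and Col5a1 as the nearest gene, covering 29.0, 28.5 and 26.5 kb.

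**Figure D3:**
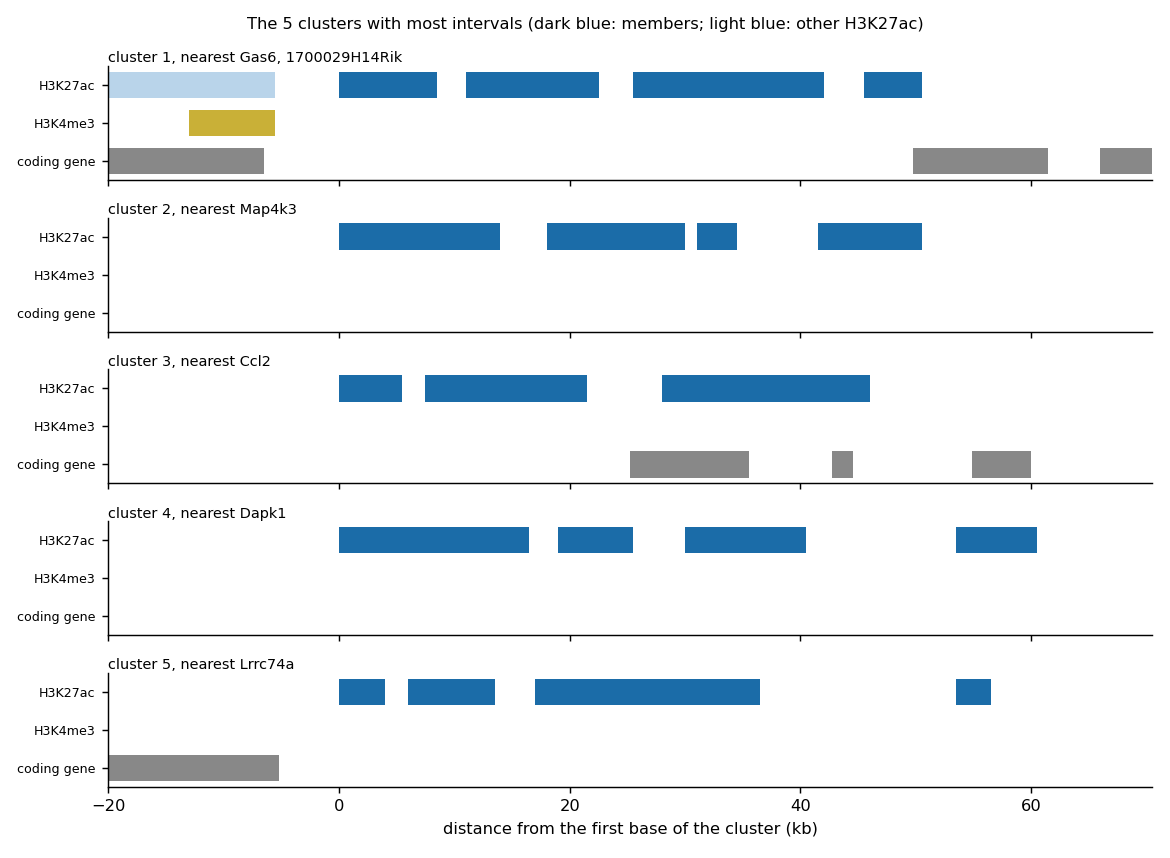
Maps of the 2 groups of 4 members and of the 3 groups of 3 that covered most sequence, each on a scale of kb from its first base with 20 kb on either side. Dark blue, members; light blue, other H3K27ac intervals; yellow, H3K4me3 peaks; grey, coding genes. H3K4me3 is seen beside the first group, at Gas6, and at none of the other 4 maps. Members that stand over 12.5 kb to the right of the group on the fourth and the fifth map do not belong to it.

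Sequence was compared next, because the rule did not use it. In the central 1000 bp, 923 of 2209 members held the AP-1 letters TGANTCA on either strand, 41.8% (interval 39.7 to 43.9). Within genes the share was 36.2% (34.4 to 38.0), a difference of 5.61 percentage points (95% Newcombe interval 2.88 to 8.34), higher between genes on 15 of 20 chromosomes. The rearranged letters TCANTGA, of the same base composition, were at 29.3% and 29.9% (difference -0.526, interval -3.08 to 2.04). In the central 500 bp the difference was 2.05 points (-0.256 to 4.37), so the larger share between genes was not detectable in that narrower window. Of windows between genes with no peak within 5000 bp, 26.7% held the AP-1 letters and 34.4% the rearranged ones, and members exceeded the former by 15.1 points (13.1 to 17.2), on 20 of 20 chromosomes.

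The AP-1 letters were concentrated at the centre of the members, as they were in intervals within genes. Within 250 bp of the centre there were 0.539 matches per kb and over 4000 bp away 0.331, while the rearranged letters stood at 0.353 and 0.364. Within genes the AP-1 letters stood at 0.479 and 0.313 per kb. In the 570 members up to 3000 bp wide the centre reached 0.748 per kb against 0.313 in the flanks, and 50.2% (46.1 to 54.3) held the letters in the central 1000 bp. Members over 7000 bp wide were at 35.3% (31.3 to 39.6), 14.8 points below the narrow ones (interval of the difference 8.96 to 20.6). Of intervals within genes up to 3000 bp wide, 44.6% (39.8 to 49.4) held the letters. At 250 members (11.3%, 10.1 to 12.7) there were 2 or more AP-1 matches in the central window. This compared with 8.07% (7.11 to 9.15) of intervals within genes and 4.43% of windows without a peak. The whole interval held a match in 86.8% of members, up to 14 in 1 member, which is in part a matter of width.

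The TEAD letters GGAATG were in 52.9% of central windows (50.8 to 54.9) and their rearranged form GGTAAG in 29.2%. The share was 4.05 points above intervals within genes (1.24 to 6.84) and 7.98 points above windows without a peak (5.88 to 10.1). AP-1 and TEAD letters occurred together in 22.3% of members (20.6 to 24.1), AP-1 alone in 19.5%, TEAD alone in 30.6% and neither in 27.7%. In deserts 9.01 points more members held TEAD letters than up to 10 kb from a start (2.14 to 15.8), while for AP-1 the difference was -5.88 points (-12.7 to 0.931) and not detectable. Deserts were also lower in GC content, and the part of composition in this was not tested. RUNX letters (TGTGGT) were in 60.2% (58.1 to 62.2) against 49.0% for TGGTGT, 9.22 points above windows without a peak (7.15 to 11.3), with no detectable difference from within genes (1.73, -1.03 to 4.47).

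Of the other motifs, the NFI letters TTGGCA were 5.61 points above windows without a peak (3.53 to 7.71) and the C/EBP letters TTGCNNAA 5.05 points above intervals within genes (2.32 to 7.77), but only 0.279 points above windows without a peak (-1.77 to 2.36), while its rearranged letters were 3.16 points above those (1.08 to 5.26). For the hypoxia response element core ACGTG, bound by HIF factors, the share was 38.2% (36.2 to 40.2), which differed from intervals within genes by -3.44 points (-6.17 to -0.689) and was 12.1 points above windows without a peak. Its rearranged letters TCGAG were 4.45 points above as well (2.67 to 6.32). ETS letters (CCGGAA) were in 11.2% of members against 48.0% of intervals with H3K4me3, and their rearranged form in 13.2% and 43.3%. For the E-box CAGATG the interval of the difference from windows without a peak included 0 (1.84, -0.247 to 3.90). A match is a run of letters and does not show that a factor was bound.

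**Figure D4:**
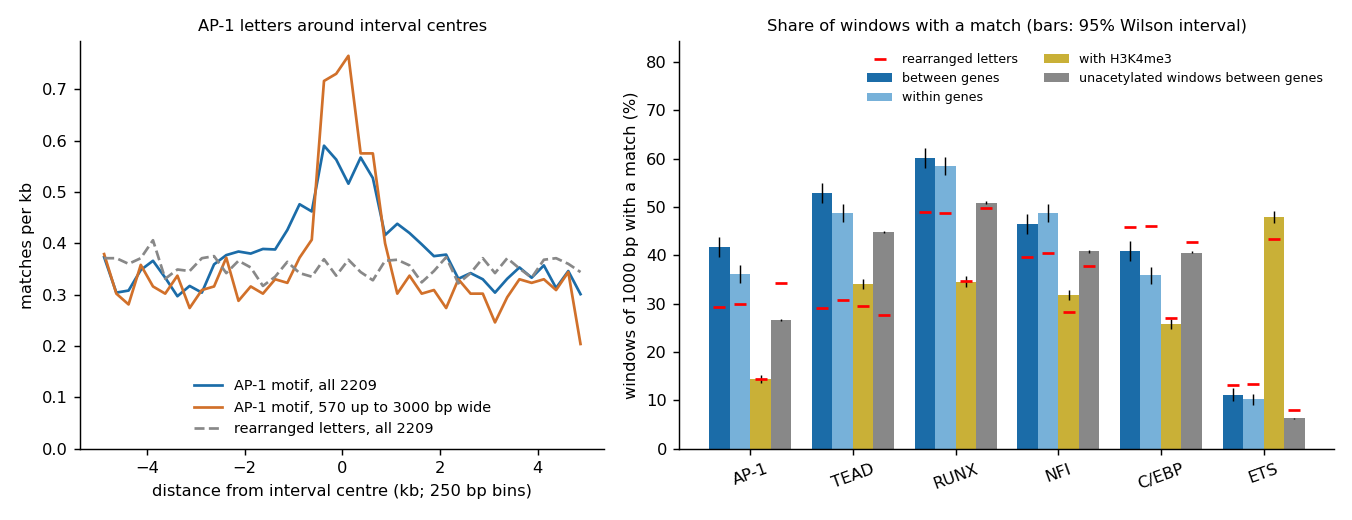
Left, AP-1 matches per kb in bins of 250 bp around interval centres, for all 2209 members and for the 570 up to 3000 bp wide, with the rearranged letters as the dashed line. Right, share (%) of central 1000 bp windows with a match for 6 motifs, in members, in intervals within genes, in intervals with H3K4me3 and in windows between genes without a peak, with 95% Wilson intervals and the rearranged letters as red marks. AP-1 stands at 41.8% in members and 26.7% in windows without a peak.

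The median GC content of members was 44.9% (interquartile range 42.1 to 47.7), close to the 44.7% of intervals within genes and below the 51.9% of intervals with H3K4me3. Windows between genes without a peak had 40.4% (36.8 to 44.2), and members were above them on 20 of 20 chromosomes. GC content was lower in deserts, 42.8%, than up to 10 kb from a start, 46.3%. Repeats made up a median of 21.5% of a member and 32.0% of a window without a peak. The windows were 1000 bp long and included chromosome Y, and the authors' calls required a minimum mapping quality. The part of these in the difference was not tested. The ratio of observed to expected CG pairs was 0.194 in members, 0.207 within genes, 0.584 with H3K4me3 and 0.142 in windows without a peak.

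Scores, taken as the confidence of a call, were compared between the oxygen levels as a description, because the rule itself used these calls. Over all 14614 intervals in both lists the score was higher in hypoxia at 39.9% and in normoxia at 16.6%. Among members it was higher in hypoxia at 852 (38.6%), higher in normoxia at 627 (28.4%) and equal at 730 (33.0%). Within genes it was higher in hypoxia at 44.4%, higher in normoxia at 28.7% and equal at 736 of 2726. Medians of members were 85.0 in hypoxia (65.0 to 121) and 84.0 in normoxia (64.0 to 116). In both lists 175 members stood at 1000, in hypoxia alone 83 and in normoxia alone 63.

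Of the 1888 members under 1000 in both lists, 1162 differed by at most 5 and the median change was 0, while 161 were higher in hypoxia by 20 or more and 96 were higher in normoxia by that much. The largest rises from hypoxia to normoxia were downstream of Trps1, a GATA-type repressor of cartilage (53 to 129, chr15:50478501-50481000), downstream of Atp6ap1l (76 to 151) and upstream of Pdk4, which limits the entry of pyruvate into the citric acid cycle (58 to 124, chr6:5582001-5585500). The largest falls were downstream of Cxcl12 (114 to 52, chr6:117270501-117274000), upstream of Pdzrn3 (129 to 68) and upstream of Uso1 (127 to 67). The other 3 members near Cxcl12 had 123, 131 and 78 in hypoxia and 131, 131 and 81 in normoxia, so 1 of 4 fell by over 20.

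The direction of the score moved with base composition. In the lowest quartile of GC content (32.6 to 42.1%) the score was higher in hypoxia at 32.7% of members (29.0 to 36.7) and in normoxia at 37.8% (33.8 to 41.9), and in the highest quartile (47.7 to 58.8%) at 42.8% (38.7 to 46.9) and 19.6% (16.5 to 23.1). Intervals within genes showed the same order, with 36.1% and 36.5% in their lowest quartile and 51.3% and 19.9% in their highest. The median GC content was 45.3% for members higher in hypoxia and 44.0% for those higher in normoxia. Whether GC content has a part in the score difference was not tested.

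AP-1 letters also differed with the direction of the score, a comparison chosen after values were seen. They were in the central window of 295 of 627 members with a higher score in normoxia (47.0%) and of 332 of 852 with a higher score in hypoxia (39.0%), a difference of 8.08 points (2.98 to 13.1). The rearranged letters were at 30.8% in both. At or below the median GC content of members the difference was 9.20 points (2.23 to 16.1), and above it 7.52 points with a lower bound of -0.0394, where it was not detectable. Members higher in normoxia had a median width of 4500 bp and those higher in hypoxia 5000 bp, and the part of width in the difference was not tested. In intervals between genes present in a single list, the AP-1 share was 52.9% of 68 normoxia-only (41.2 to 64.3) and 38.5% of 109 hypoxia-only intervals (29.9 to 47.9).

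**Figure D5:**
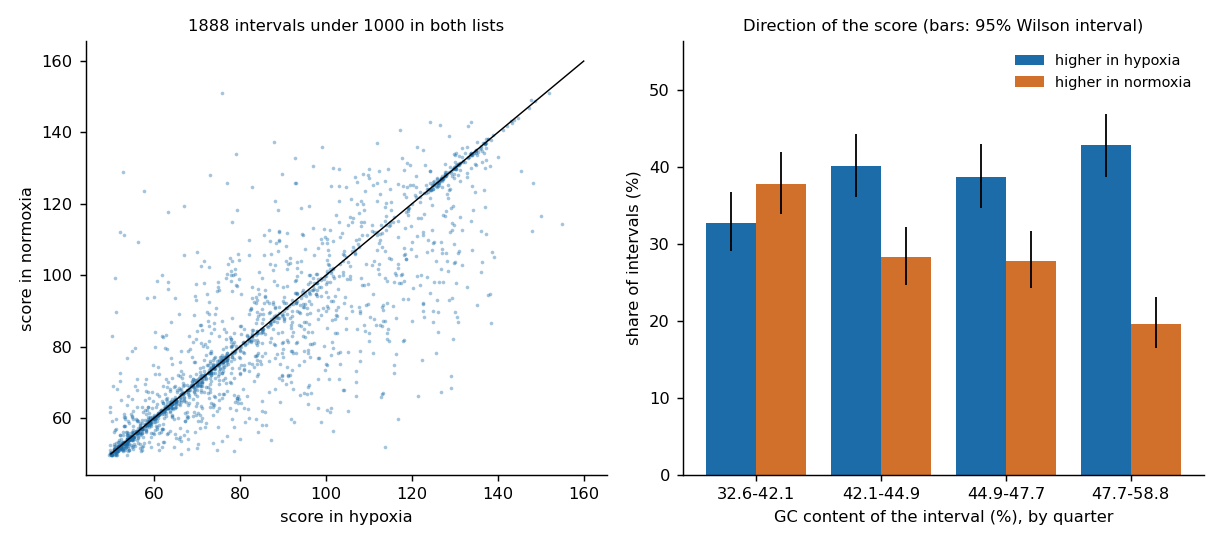
Left, score in normoxia against score in hypoxia for the 1888 members under 1000 in both lists, each point 1 interval, with the line of equal scores (points spread by up to 0.4 to show ties). Right, share (%) of members with a higher score in hypoxia (blue) or in normoxia (orange) by quartile of GC content, with 95% Wilson intervals. The normoxia share is 37.8% in the lowest quartile and 19.6% in the highest.

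Changes nearby were rare. A hypoxia-only H3K27ac interval touched 15 members (0.679%, interval 0.412 to 1.12) and a normoxia-only interval 3 (0.136%, 0.0462 to 0.399). Over all intervals in both lists these shares were 1.71% and 0.500%, and within genes 0.514% and 0.147%. Within 10 kb, 49 members (2.22%) had a hypoxia-only interval and 14 (0.634%) a normoxia-only interval. These shares were 3.29% and 0.890% over all intervals in both lists, and 1.21% and 0.440% within genes. The rest had no interval present at a single oxygen level that close.

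Long non-coding RNA genes held the midpoint of 356 members (16.1%, 14.6 to 17.7), and 209 lay within 1000 bp of a start of such a gene. In deserts the share was 21.0% (18.2 to 24.2). How much of the sequence between coding genes lies in such genes was not counted, so these shares have no background. These members were spread over 321 genes, led by Mir99ahg, the host gene of a group of microRNAs, with 5 members, and Gm31718 with 4.

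Enhancers tested in transgenic mouse embryos by the VISTA project and listed in the RefSeq annotation gave an outside reading. Of 343 such elements outside coding genes 41 (12.0%, 8.93 to 15.8) shared bases with a member, and 60 with any H3K27ac interval. The elements were picked by that project for features of enhancers, so the share has no simple background. By the reported site of activity, 12 of 103 limb elements (11.7%, 6.79 to 19.3), 6 of 45 facial mesenchyme elements (13.3%), 8 of 71 heart elements (11.3%) and 12 of 85 hindbrain elements (14.1%) held a member. The intervals of these shares overlap. The member 9.99 kb upstream of Col1a2 covered an element active in limb, and a member 76.3 kb from Fgfr1 covered 2 overlapping elements active in limb and facial mesenchyme. Downstream of Sorl1, 3 of its 8 members covered elements, of which 2 were reported active in limb.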

How the data were processed

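The authors mapped reads to mm10 with Bowtie2, removed duplicates with Picard (both named in the submitters' processing notes) and segmented both oxygen levels together with chromstaR, in bins of 1000 bp moved by 500 bp. The authors deposited 4 lists, 1 per mark and oxygen level, with a score per peak (50 to 160, or 1000), whose definition is not given in the sources used here. The score was taken as confidence of the call, not signal height. Overlapping intervals of the 2 H3K27ac lists have identical bounds. Read counts and per-library values were not analysed here.

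Distances run from an interval's edge to the nearest protein-coding start (GENCODE M21 basic). Sequence between coding genes was sampled by 1000 bp windows every 10000 bp. Motifs were counted on both strands of RefSeq GRCm38 sequence. Shares have 95% Wilson intervals, differences Newcombe intervals. Functions were tested on simulated data. Python 3.11.15 with pandas, numpy, pysam and matplotlib was used. Members and gene lists were chosen with earlier results of these data known. Named regions were the 5 farthest, the 5 widest, the 5 largest groups (ties by covered length) and the 3 largest score rises and falls. Named genes were the 15 with most members and up to 4 of each list.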

Additional observations from a re-analysis of the deposited data

How the results depend on the processing

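Of 66 alternatives over 8 results, 46 kept the result within its limits. Only the AP-1 difference has a direction that could turn, and 0 of its 12 alternatives turned it. Asking for at least 50% of an interval to be covered in both lists had to return the same 2209 members. This is because overlapping intervals of the lists have identical bounds. Leaving out the lowest-scoring 25% gave 1299 members, 46.2% between genes, 2.39% in groups of at least 3 and 40.8% higher in hypoxia. With the whole interval outside coding genes, 41.7% lay between genes, 35.1% in deserts and 81.3% had a nearest gene with a marked start. With the bodies of all gene types left out there were 37.2% between genes, 31.0% in deserts and 3.22% in groups of at least 3, and with no width limit 43.0% between genes and 5.74% in groups. Desert limits of 50 and 200 kb gave 52.5% and 16.3%, and joining distances of 5 and 25 kb gave 1.13% and 8.87%. The share whose nearest gene had a marked start was 82.6% over 10 kb from a start and 94.9% with either flanking gene. For AP-1, the difference between and within genes was 2.05 points in the central 500 bp, and 5.62 points (interval -0.701 to 11.9) in intervals up to 3000 bp wide, an alternative chosen after seeing the data, where fewer intervals were compared. The other 10 alternatives for AP-1 kept it above 0. Leaving out a library was not possible for the same reason as pairing. No paired analysis was possible because the lists pool the libraries of a group and give no value per library. The depth of each library is not known here.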
